A study of Homo sapiens with 6 samples.

Results

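Collagens and the enzymes that modify them were followed in SW480, a human colorectal cancer cell line, carrying either a FOXC2 construct or the empty control vector pBabe. The set was fixed by gene symbol. It held 46 genes, of which 34 had a feature in the analysed table, and that table held 33497 features naming 12562 genes. The 34 were 20 collagen chains and 14 enzymes and helper proteins. The chains COL1A2, COL5A2, COL11A1, COL4A5, COL4A6, COL15A1, COL8A2, COL10A1, COL9A1, COL14A1, COL13A1 and COL17A1 had no feature with their symbol and were not analysed here. The design text speaks of 45033 genes per chip, and the 33497 features analysed hold no value below 50.002 on any array, so a gene that was dim in 1 group may be missing. Counts and shares therefore describe measured genes only. Where features shared a symbol, the brightest by its mean over the 6 arrays stood for the gene.

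Retrovirus delivered the construct or the vector. Both groups then had 3 to 5 days of puromycin (0.5 μg/mL), grew with 10% fetal bovine serum and were collected at 90% confluence. The FOXC2 group was labelled as ectopic FOXC2 expression and the pBabe group as the vector control, with 3 separate cultures each and 1 single-colour array per culture. The labels do not name separate transductions or clones, nor the promoter that drove FOXC2, so p-values measure the spread between cultures. The values are intensities, with array medians of 895 to 913 and no value below 50.002 in the table, and the 3 arrays per group limit the precision. FOXC2, a forkhead transcription factor, measured 8777, 8262 and 8344 with the construct and 2319, 2323 and 2818 with the vector, a log2 fold change of 1.77 ± 0.107 (SE; limma adjusted p 1.16e-04).

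Collagens, most of them secreted, are proteins whose chains wind around each other into a helix rich in glycine and proline. Prolyl hydroxylases (P4HA genes) and lysyl hydroxylases (PLOD genes) modify the chains in the endoplasmic reticulum, where the chaperone SERPINH1 binds the folded helix. Outside the cell, proteinases remove the propeptides, helped by the PCOLCE proteins, and the lysyl oxidases LOX and LOXL cross-link the fibrils. In the intestine most fibrillar collagen is made by fibroblasts, while epithelial cells contribute to the basement membrane on which they rest.

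Some chains are encoded by neighbouring genes that are read away from each other. COL4A1 and COL4A2, and likewise COL4A3 and COL4A4, start close together on opposite strands, so the stretch between them lies upstream of both. These stretches are shown because 1 gene of each pair passed the test used here and its neighbour did not. The upstream stretches of COL5A1 and COL5A3 are shown because these chains of type V collagen went in opposite directions. All letters are from RefSeq, build GRCh38.p14, with the strand given, and no other annotated gene lay over any of these stretches. The start sites of COL4A1 and COL4A2 were 127 bases apart, and those of COL4A4 and COL4A3 were 136 bases apart. Capitals mark a CCAAT box (CCAAT) or a GC box (GGGCGG), each on either strand.
COL4A1 to COL4A2, chr13:110307158-110307283, plus strand: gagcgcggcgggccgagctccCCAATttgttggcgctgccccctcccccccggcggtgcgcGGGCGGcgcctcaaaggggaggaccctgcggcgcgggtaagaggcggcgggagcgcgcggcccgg
COL4A4 to COL4A3, chr2:227164489-227164623, plus strand: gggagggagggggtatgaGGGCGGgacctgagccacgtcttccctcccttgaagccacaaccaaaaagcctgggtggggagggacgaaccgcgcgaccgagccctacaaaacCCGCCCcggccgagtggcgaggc
COL5A1 upstream, chr9:134641553-134641802, plus strand: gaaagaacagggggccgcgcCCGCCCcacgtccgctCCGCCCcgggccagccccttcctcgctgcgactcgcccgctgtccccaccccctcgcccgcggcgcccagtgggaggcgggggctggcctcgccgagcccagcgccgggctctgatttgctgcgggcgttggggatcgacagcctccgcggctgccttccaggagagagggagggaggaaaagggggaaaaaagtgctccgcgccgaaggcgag
COL5A3 upstream, chr19:10010505-10010754, minus strand: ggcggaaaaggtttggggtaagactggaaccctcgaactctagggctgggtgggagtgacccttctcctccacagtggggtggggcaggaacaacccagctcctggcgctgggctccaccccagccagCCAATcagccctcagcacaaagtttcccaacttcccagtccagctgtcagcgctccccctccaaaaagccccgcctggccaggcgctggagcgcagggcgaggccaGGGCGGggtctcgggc

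The stretch between COL4A1 and COL4A2 was 80.2% G or C and held 1 CCAAT box and 1 GC box. Of 35116 promoter windows of all genes cut to the same 126 bases, 21.1% held a CCAAT box and 34.6% a GC box. Between COL4A4 and COL4A3 there were 2 GC boxes and 0 CCAAT boxes. Among all windows cut to the same 135 bases, 35.5% held a GC box and 22.1% a CCAAT box. COL5A1 had 2 GC boxes and 0 CCAAT boxes in its 250 bases, and COL5A3 had 1 of each, where 42.6% of all windows of that length held a GC box and 32.0% a CCAAT box. Of the 34 measured genes, 26 had at least 1 promoter window. None of these 26 held the forkhead core GTAAACA on either strand in the 250 upstream bases of any of its windows. Counted window by window, 2.98% of all windows held it, and at so low a share 0 of 26 genes does not show depletion. The TATA box TATAAA was searched too and was in 0 of the 4 stretches, and no matches overlapped in them. A match or its absence describes these letters only.

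Of the 34 genes, 19 passed the test, 8 higher and 11 lower in FOXC2 cells. The test was limma over all 33497 features with Benjamini-Hochberg adjustment, and a gene passed at an adjusted p under 0.05. The 19 are 55.9% of the measured set, where 28.4% of all named genes and 26.3% of all features passed. The 8 higher are 23.5% of the set against 14.1% of named genes, and the 11 lower are 32.4% against 14.3%. With at least a 2-fold change 10 of the 34 passed, or 29.4%, against 7.08% of named genes. The groups did not overlap for 28 of the 34, or 82.4%, against 48.4% of named genes. The median log2 fold change was -0.07 over the 34 and 0.03 over all named genes, and the set held both rises and falls. The count of all features that passed dropped from 8819 to 5752 without FOXC2 replicate 3. That of the set went from 19 to 18, but with 6 higher and 12 lower, so some calls changed. Without pBabe replicate 1 or 3 the count of the set was 16.

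**Figure D1:**
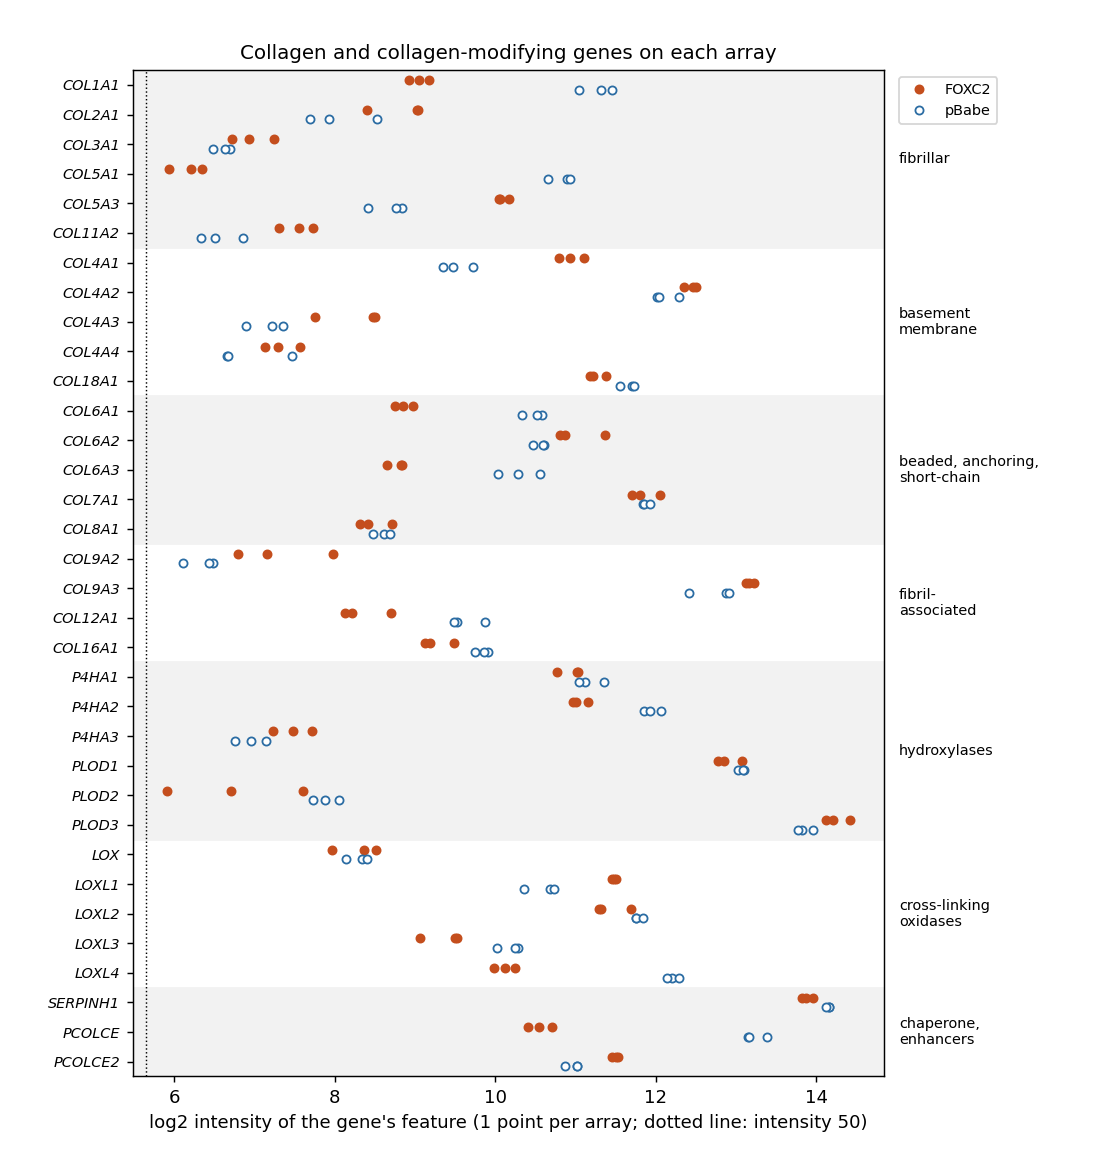
Log2 intensity (horizontal axis) of the feature of each of the 34 genes on each array, by role, with filled points for the 3 FOXC2 arrays and open points for the 3 pBabe arrays. The groups lie farthest apart for COL5A1, whose FOXC2 points sit close to the dotted line at an intensity of 50, and for PCOLCE, COL1A1 and LOXL4.

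Fibrillar collagens, which form the banded fibres of connective tissue, went both ways. COL5A1, a chain of the type V collagen that starts and limits fibril growth, had intensities of 81, 61 and 74 in FOXC2 cells and 1902, 1621 and 1948 in pBabe cells. It was 25.4-fold lower (95% confidence interval 20.2 to 31.7), with a log2 fold change of -4.66 ± 0.136 (SE; limma adjusted p 2.4e-05). Its FOXC2 values were close to the table's lowest, 50.002, so the size of this fall is less certain than its direction. COL5A3, another type V chain, moved the other way.

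COL5A3 intensities were 1060, 1070 and 1155 in FOXC2 cells and 458, 435 and 341 in pBabe cells. Its rise was 2.68-fold (95% confidence interval 2.16 to 3.32; limma adjusted p 5.74e-04), and every FOXC2 array lay above every pBabe array. COL1A1, the major chain of type I collagen, stood at 580, 486 and 530 in FOXC2 cells and 2116, 2795 and 2551 in pBabe cells. It fell by 2.22 ± 0.131 (SE) on the log2 scale, a 4.66-fold difference (limma adjusted p 1.09e-04), with no overlap. Its partner chain in type I collagen, COL1A2, was among the chains not analysed here.

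COL11A2, a chain of the cartilage-type fibril collagen XI, was dim in both groups, at 212, 158 and 188 against 91, 116 and 81. It rose by 0.96 ± 0.168 (SE; limma adjusted p 0.00756). COL3A1, the chain of the type III collagen of soft tissue, stood at 152, 105 and 122 in FOXC2 cells and 103, 99 and 89 in pBabe cells and did not pass (0.37 ± 0.149, SE; limma adjusted p 0.116). COL2A1, the cartilage collagen, stood at 526, 338 and 519 against 243, 368 and 206, with overlapping groups, and did not pass (0.77 ± 0.261, SE; limma adjusted p 0.0706). COL2A1 passed without FOXC2 replicate 2 (adjusted p 0.0451) or pBabe replicate 2 (0.0315), and its adjusted p ran from 0.0177 to 0.182 over the alternatives run.

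Basement membrane collagens had 2 of 5 measured genes rise and 1 fall, where 14.1% of named genes rose and 14.3% fell. COL4A1 and COL4A2 encode the chains of the common type IV network that underlies epithelia. COL4A1 intensities were 1769, 2204 and 1948 in FOXC2 cells and 710, 653 and 847 in pBabe cells, a 2.68-fold rise (95% confidence interval 2.15 to 3.35; limma adjusted p 6.68e-04). COL4A2, which starts 127 bases away, stood at 5647, 5782 and 5206 against 4152, 4992 and 4228. Its groups did not overlap, but its log2 fold change of 0.32 ± 0.106 (SE) did not pass (limma adjusted p 0.0682). It passed without pBabe replicate 2 (0.0439), and its adjusted p ran from 0.0137 to 0.171 over the alternatives run.

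COL4A3 and COL4A4 encode chains of the type IV network best known from the kidney glomerulus. COL4A3 stood at 216, 363 and 355 in FOXC2 cells and 164, 119 and 149 in pBabe cells and rose by 1.09 ± 0.228 (SE; limma adjusted p 0.0151). Without FOXC2 replicate 3 it no longer passed (0.0517), and its adjusted p ran from 0.00338 to 0.0517 over the alternatives run. COL4A4 stood at 140, 157 and 190 against 101, 177 and 102, so pBabe replicate 2 lay within the FOXC2 range. It did not pass (0.40 ± 0.240, SE; limma adjusted p 0.260) except without that array (0.0319), and its adjusted p ran from 0.0319 to 0.517. COL18A1, the source of the fragment endostatin, stood at 2313, 2389 and 2664 against 3323, 2995 and 3388 and fell by 0.40 ± 0.0995 (SE; limma adjusted p 0.0276). The fall of COL18A1 no longer passed without FOXC2 replicate 1 (0.0800), FOXC2 replicate 2 (0.0830), pBabe replicate 1 (0.0742) or pBabe replicate 3 (0.0762), within a range of 0.00315 to 0.0830.

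Type VI collagen, a beaded filament of the matrix around cells, is built from chains of COL6A1, COL6A2 and COL6A3. COL6A1 intensities were 504, 460 and 430 in FOXC2 cells and 1529, 1471 and 1284 in pBabe cells, and it was 3.07-fold lower (95% confidence interval 2.56 to 3.68; limma adjusted p 1.81e-04). COL6A3 stood at 400, 452 and 459 against 1249, 1052 and 1504 and was 2.88-fold lower (95% confidence interval 2.26 to 3.66; limma adjusted p 7.06e-04). For both chains all FOXC2 arrays lay below all pBabe arrays.

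COL6A2, on the same chromosome as COL6A1, stood at 1873, 2635 and 1789 in FOXC2 cells and 1419, 1564 and 1551 in pBabe cells. Its groups did not overlap, and its log2 fold change of 0.45 ± 0.159 (SE) did not pass (limma adjusted p 0.0790). Its adjusted p ran from 0.0109 to 0.182 over the alternatives run. The other features of COL6A2 gave 0.47 (adjusted p 0.101) and 0.54 (adjusted p 0.132), again without passing. COL7A1, which forms the fibrils that anchor basement membrane to stroma, stood at 3559, 4247 and 3346 against 3665, 3700 and 3904 (-0.02 ± 0.112, SE; limma adjusted p 0.904). Its 95% confidence interval on the log2 scale was -0.29 to 0.24. COL8A1, a short-chain collagen of vessels, had overlapping groups too (-0.11 ± 0.129, SE; limma adjusted p 0.566).

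**Figure D2:**
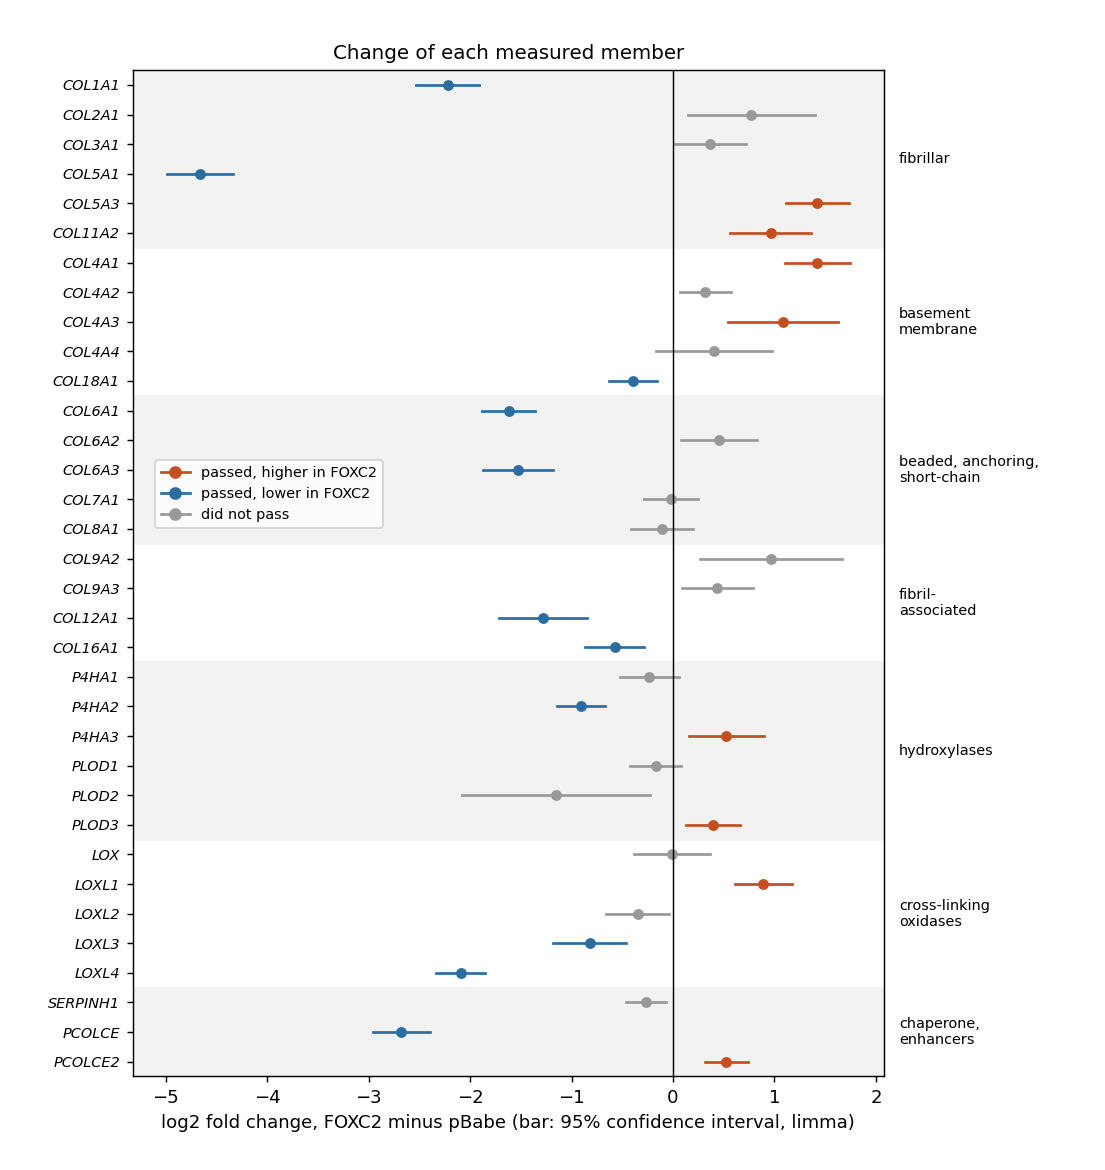
Log2 fold change (horizontal axis, FOXC2 minus pBabe) of each of the 34 genes with its 95% confidence interval from limma, ordered by role and coloured by whether the gene passed and in which direction. Every role group but the beaded and the fibril-associated collagens holds at least 1 rise and at least 1 fall that passed, and values run from -4.66 for COL5A1 to 1.42 for COL4A1.

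Fibril-associated collagens sit on the surface of fibrils and link them to other matrix. COL12A1 stood at 278, 415 and 297 in FOXC2 cells and 736, 714 and 935 in pBabe cells and fell by 1.28 ± 0.183 (SE; limma adjusted p 0.00348). COL16A1 stood at 582, 556 and 715 against 962, 928 and 856 and fell by 0.57 ± 0.121 (SE; limma adjusted p 0.0154). Without FOXC2 replicate 2 COL16A1 narrowly missed the threshold (0.0506), within a range of 0.00279 to 0.0525 over the alternatives run.

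The type IX chains, known from cartilage, were higher on every FOXC2 array without passing. COL9A3 stood at 8919, 9590 and 9189 against 7539, 5460 and 7721 (0.44 ± 0.147, SE; limma adjusted p 0.0708). Its adjusted p ran from 0.00799 to 0.164 over the alternatives run. COL9A2 was dim and variable, at 253, 142 and 111 in FOXC2 cells and 69, 89 and 86 in pBabe cells (0.97 ± 0.295, SE; limma adjusted p 0.0520). COL9A2 passed without FOXC2 replicate 3 (0.0303), and its adjusted p ran from 0.0280 to 0.139.

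Chains of 1 collagen type were next set against each other within each array, which asks whether they changed equally and not which is more abundant. The log2 difference between COL5A1 and COL5A3 shifted by -6.09 ± 0.222 (SE), and that between COL6A1 and COL6A2 by -2.07 ± 0.217 (SE). The size of the shift for type V is uncertain, since COL5A1 in FOXC2 cells was close to the table's lowest value and was not shown to be above background. COL6A1 and COL6A3 shifted against each other by only -0.09 ± 0.248 (SE), with overlapping groups. COL4A1 moved against COL4A2 by 1.11 ± 0.201 (SE), so the ratio of these divergent neighbours was 2.15-fold higher in FOXC2 cells. For COL4A3 against COL4A4 the shift was 0.69 ± 0.436 (SE), and for COL9A2 against COL9A3 it was 0.53 ± 0.446 (SE), both with overlapping groups.

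In all, 8 pairs were compared with a two-sided exact permutation test over the 6 arrays, which cannot give a p below 0.10. The groups did not overlap for 5 pairs, COL5A1 with COL5A3, COL6A1 with COL6A2, COL6A2 with COL6A3, COL4A1 with COL4A2, and PCOLCE with PCOLCE2, each with an exact p of 0.10 and 0.16 after adjustment over the 8 pairs. The exact p was 0.20 for COL4A3 with COL4A4, 0.40 for COL9A2 with COL9A3 and 0.80 for COL6A1 with COL6A3. The pairs were chosen after their values were seen, so these shifts are descriptions. An exact p of 0.10 follows from the lack of overlap itself and adds nothing to it. The share of other gene pairs without overlap was not tested. Among single named genes, the groups did not overlap for 48.4%.

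**Figure D3:**
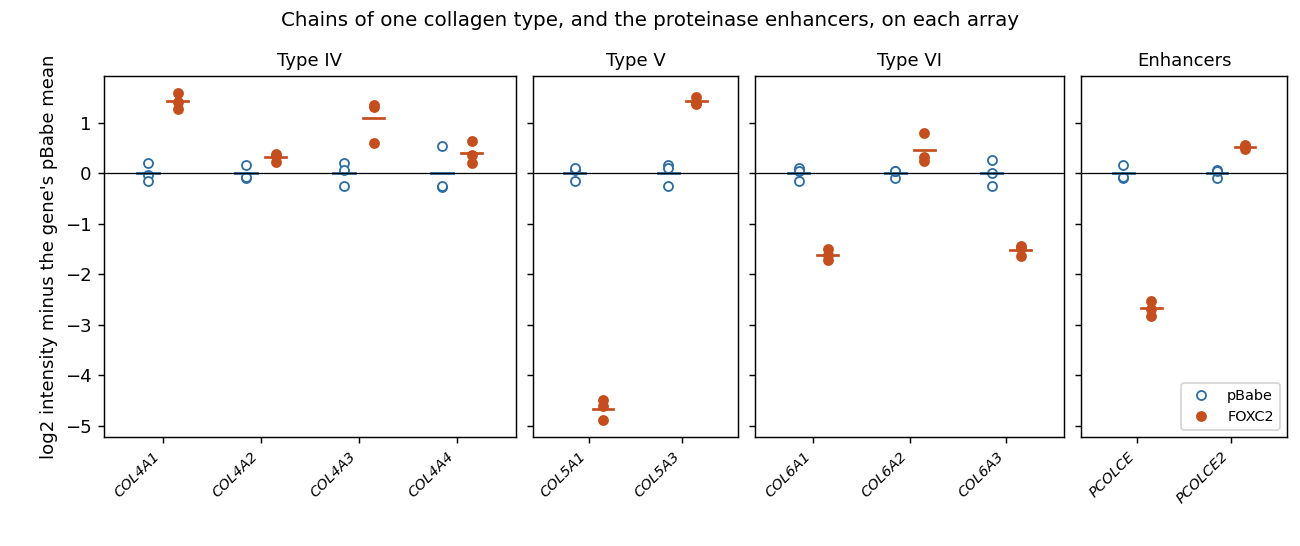
Log2 intensity on each array minus the mean of the gene's 3 pBabe arrays (vertical axis) for chains of collagen types IV, V and VI and for the proteinase enhancers, with open points for pBabe, filled points for FOXC2 and lines at group means. The mean FOXC2 value is -4.66 for COL5A1 and 1.42 for COL5A3, and the FOXC2 points of COL6A2 stay above 0 while those of COL6A1 and COL6A3 lie below.

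Of the 6 enzymes of chain hydroxylation, 2 rose, 1 fell and 3 did not pass, where 14.1% of named genes rose and 14.3% fell. P4HA2, a catalytic subunit of prolyl 4-hydroxylase, stood at 2059, 2272 and 1998 in FOXC2 cells and 4284, 3698 and 3882 in pBabe cells and was 1.87-fold lower (95% confidence interval 1.59 to 2.21; limma adjusted p 0.00125). The subunit P4HA1 stood at 1746, 2065 and 2087 against 2214, 2106 and 2614 (-0.23 ± 0.123, SE; limma adjusted p 0.208). A dimmer feature of P4HA1 passed, with a log2 fold change of -0.35 (adjusted p 0.0252), so its features differed in call but not in sign. The subunit P4HA3 was dim, at 150, 210 and 178 against 108, 124 and 141, and rose by 0.53 ± 0.156 (SE; limma adjusted p 0.0482). P4HA3 kept its call without FOXC2 replicate 1 but lost it without FOXC2 replicate 2 (0.124), FOXC2 replicate 3 (0.117), pBabe replicate 1 (0.127), pBabe replicate 2 (0.106) or pBabe replicate 3 (0.0526), within a range of 0.0343 to 0.127. With quantile normalization its adjusted p was 0.0705 and with a trended robust prior 0.117.

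PLOD3, a lysyl hydroxylase that also adds sugars to hydroxylysine, stood at 21903, 17773 and 18868 in FOXC2 cells and 14535, 14036 and 15864 in pBabe cells and rose by 0.39 ± 0.111 (SE; limma adjusted p 0.0403). Its call was lost without any 1 of the 6 arrays, with adjusted p of 0.0514 to 0.108, against 0.00256 to 0.108 over the alternatives run. PLOD1, another lysyl hydroxylase, had overlapping groups (-0.17 ± 0.104, SE; limma adjusted p 0.266). PLOD2, which hydroxylates the telopeptides where cross-links form, varied most, at 60, 104 and 194 in FOXC2 cells against 265, 236 and 212 in pBabe cells. The groups did not overlap, but the log2 fold change of -1.15 ± 0.390 (SE) did not pass (limma adjusted p 0.0711). PLOD2 passed without FOXC2 replicate 3 (0.0112), and its adjusted p ran from 0.0112 to 0.166.

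Cross-linking oxidases were split. LOXL4 intensities were 1016, 1117 and 1213 in FOXC2 cells and 4699, 5013 and 4525 in pBabe cells, and it was 4.26-fold lower (95% confidence interval 3.61 to 5.03; limma adjusted p 5.6e-05). LOXL3 stood at 734, 534 and 723 against 1041, 1244 and 1209 and fell by 0.82 ± 0.151 (SE; limma adjusted p 0.00925). LOXL1, known for its part in elastic fibres, stood at 2855, 2899 and 2794 against 1309, 1637 and 1697 and was 1.85-fold higher (95% confidence interval 1.52 to 2.25; limma adjusted p 0.00264).

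LOXL2, which acts on type IV collagen, stood at 2541, 3318 and 2497 in FOXC2 cells and 3442, 3458 and 3656 in pBabe cells and did not pass (-0.35 ± 0.129, SE; limma adjusted p 0.0907). It passed without FOXC2 replicate 2 (0.0252), within a range of 0.0190 to 0.237. LOX itself, the founding lysyl oxidase, stood at 250, 329 and 365 against 322, 338 and 283 (-0.01 ± 0.158, SE; limma adjusted p 0.965), with a 95% confidence interval of -0.39 to 0.36 on the log2 scale. The 5 oxidases thus held 1 rise, 2 falls and 2 genes that did not pass, where 14.1% of named genes rose and 14.3% fell.

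PCOLCE and PCOLCE2 enhance the proteinases that cut the carboxyl propeptide from fibrillar procollagen. PCOLCE intensities were 1675, 1359 and 1495 in FOXC2 cells and 9056, 10722 and 9181 in pBabe cells. It was 6.40-fold lower (95% confidence interval 5.27 to 7.77), with a log2 fold change of -2.68 ± 0.118 (SE; limma adjusted p 4.5e-05). PCOLCE2 stood at 2811, 2953 and 2913 against 2081, 1869 and 2080 and rose by 0.53 ± 0.0877 (SE; limma adjusted p 0.00632). Within arrays PCOLCE shifted against PCOLCE2 by -3.20 ± 0.169 (SE). SERPINH1, the collagen chaperone HSP47, stood at 14991, 14459 and 15889 against 18325, 18293 and 17840. All its FOXC2 arrays were lower, but the log2 fold change of -0.27 ± 0.0830 (SE) did not pass (limma adjusted p 0.0567). Its adjusted p ran from 0.00975 to 0.157 over the alternatives run.

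Other genes of the collagen pathway were taken from 8 lists with 108 entries, of which 82 were measured. Of these 82, 10 rose, 26 fell and 46 did not pass, or 43.9% passing against the 28.4% of named genes above. In the list of other collagen chains 4 of 12 were measured, and 1 passed, or 25% against 28.4% of named genes. It was COL26A1, which fell by 0.62 ± 0.0911 (SE; limma adjusted p 0.00399). Of 16 genes of folding and modification in the endoplasmic reticulum, 2 rose and 3 fell. That is 31.25% passing, close to the 28.4% of named genes. CRTAP, a subunit of the prolyl 3-hydroxylase complex, fell by 1.20 ± 0.0906 (SE; limma adjusted p 2.71e-04), and FKBP10, a prolyl isomerase that acts on procollagen, fell by 1.29 ± 0.186 (SE; limma adjusted p 0.00369). P3H2, a prolyl 3-hydroxylase, rose by 1.05 ± 0.248 (SE; limma adjusted p 0.0225). The call of P3H2 was lost without FOXC2 replicate 2 (0.0694), FOXC2 replicate 3 (0.0726) or pBabe replicate 3 (0.0619), within a range of 0.00252 to 0.0726. The others that passed, named after their values were seen, were FKBP14 (-0.92) and TMEM38B (0.48).

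None of 8 measured genes for export of procollagen passed limma's test, where 28.4% of named genes passed. An unadjusted p under 0.05 was found for 2 of the 8 and for 5298 of all 12562 named genes. Whether 0 of 8 differs from the share of named genes was not tested. The lowest p of the 8 was that of SEC24D, a coat protein of export vesicles (0.30 ± 0.105, SE; limma adjusted p 0.0759). Of 6 genes of propeptide removal and proline supply, 3 rose and 0 fell, where 14.1% of named genes rose, and the calls of ADAMTS14 and ALDH18A1 were lost without most single arrays. These were the procollagen proteinase ADAMTS14 (0.45 ± 0.125, SE), the proline synthesis enzyme ALDH18A1 (0.45 ± 0.108, SE) and the peptidase PEPD (0.42 ± 0.0829, SE), with limma adjusted p of 0.0404, 0.0238 and 0.0119. ADAMTS14 kept its call without pBabe replicate 2 and lost it without any other array (0.0691 to 0.110), within a range of 0.00404 to 0.110. ALDH18A1 lost its call without FOXC2 replicate 1 (0.0571), FOXC2 replicate 2 (0.0659), FOXC2 replicate 3 (0.0761) or pBabe replicate 2 (0.0512), within a range of 9.99e-04 to 0.0761.

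Proteins that bind collagen in the matrix were lower in most cases that passed. Of 15 measured, 8 fell and 1 rose, where 14.3% of named genes fell and 14.1% rose, with a median log2 fold change of -0.97 against 0.03 over named genes. SPARC, which binds collagen and aids its deposition, was 8.07-fold lower (limma adjusted p 3.7e-05). The small proteoglycan BGN was 5.74-fold lower (limma adjusted p 7.43e-04) and the fibulin FBLN2 4.44-fold lower (limma adjusted p 6.71e-04). The 1 that rose, named after its value was seen, was TNC (tenascin C), by 1.61 ± 0.108 (SE; limma adjusted p 1.77e-04). Of 8 genes of collagen degradation, 5 fell and 0 rose, or 62.5% lower against 14.3% of named genes. Among them were the inhibitor TIMP3 (-1.91 ± 0.121, SE), the gelatinase MMP2 (-1.75 ± 0.128, SE) and the collagenase MMP1 (-0.98 ± 0.162, SE), with limma adjusted p of 1.41e-04, 2.40e-04 and 0.00611. CTSK (-0.95) and TIMP1 (-0.38) were the others, named after their values were seen, so the falls included both proteases and inhibitors.

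Of 9 collagen receptors, 3 fell and 1 rose, or 44.4% passing against 28.4% of named genes. The 1 that rose, named after its value was seen, was ITGA2 (0.43). DDR2, a receptor tyrosine kinase for fibrillar collagen, fell by 0.80 ± 0.185 (SE; limma adjusted p 0.0210), the endocytic receptor MRC2 fell by 0.79 ± 0.195 (SE; limma adjusted p 0.0270) and the integrin chain ITGA1 fell by 0.74 ± 0.108 (SE; limma adjusted p 0.00389). DDR2 lost its call without FOXC2 replicate 2 (0.0645), FOXC2 replicate 3 (0.0686) or pBabe replicate 2 (0.0570), within a range of 0.00568 to 0.0686. MRC2 lost its call without FOXC2 replicate 1 (0.0741), FOXC2 replicate 3 (0.0696), pBabe replicate 1 (0.0805) or pBabe replicate 2 (0.0748), within a range of 8.42e-04 to 0.0805. Of 16 regulators of collagen genes, 3 rose and 6 fell, where 14.1% of named genes rose and 14.3% fell. CREB3L1, a membrane-bound factor that activates COL1A1 in bone-forming cells of mice, was 3.64-fold lower (limma adjusted p 6.2e-05), the leucine zipper factor CEBPB was 1.85-fold lower (limma adjusted p 0.00305) and the matricellular gene CCN2 was 2.60-fold higher (limma adjusted p 0.00210). The other rises, named after their values were seen, were TGFBR2 (0.69) and SOX9 (0.48), and the other falls were SMAD3 (-0.61), TGFB3 (-0.49), TGFBR1 (-0.49) and SP1 (-0.41).

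**Figure D4:**
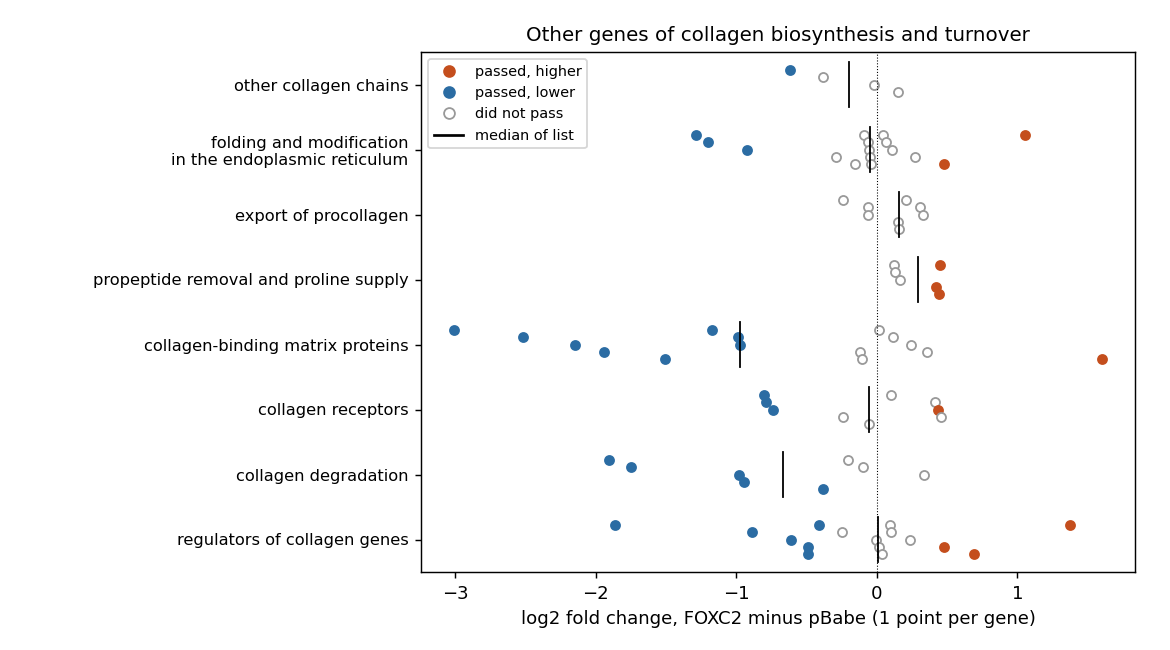
Log2 fold change (horizontal axis, FOXC2 minus pBabe) of each measured gene of the 8 lists of other collagen pathway genes, with filled points for genes that passed and a black line at the median of each list. The medians of collagen-binding matrix proteins (-0.97) and collagen degradation (-0.66) lie left of 0, with 8 and 5 falls. No gene for export of procollagen passed, out of 8 measured, where 28.4% of named genes passed.

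Markers of cell types were measured beside these results, against a background in which 14.1% of named genes rose and 14.3% fell. The fibroblast list had 7 of 14 members measured, of which PDGFRB, DCN and C1S fell, MFAP5 rose and ACTA2, TAGLN and DPT did not pass. Its summed intensity was 3630 to 4046 on the FOXC2 arrays and 4722 to 5071 on the pBabe arrays, and no marker was at 0, since the lowest fibroblast value was 50.2 on a table that starts at 50.002. The part of fibroblast-type transcripts in the collagen results was not tested. All cultures were labelled as SW480. In bulk RNA, fewer cells that express a gene and less of its RNA per cell cannot be told apart. The colorectal epithelial list had 7 of 10 members measured, of which EPCAM, KRT19, CDH1, VIL1 and CDX2 rose, KRT18 fell and KRT8 did not pass. Its summed intensity was 73033 to 77420 against 67615 to 72472, and KRT8 and KRT18 were bright in both groups. Of the endothelial list 2 of 7 were measured and both rose, CLDN5 (0.98) and EGFL7 (0.86), and of the leukocyte list 3 of 7 were measured, of which 1 fell, CD3D, to 72 to 95 on the FOXC2 arrays, close to the table's lowest value, so its size is uncertain.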

How the data were processed

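NimbleGen arrays carried 1 Cy3-labelled RNA sample each, per the labels' protocols. The authors deposited intensity values on a linear scale, processed with RMA per the submitters' processing notes. No RMA version, background setting or probe build is given in the sources used here. RMA as usually run makes array distributions alike, so a shift shared by all transcripts would not show. The table analysed holds no value below 50.002 on any array. Detection calls and scan batches were not used here.

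Log2 intensities, with no offset added, were fitted feature by feature with limma 3.58.1 (lmFit and eBayes, R 4.3.3), FOXC2 minus pBabe, with Benjamini-Hochberg adjustment over 33497 features. Features were named from the platform annotation, with 13730 carrying 1 symbol, 0 several and 19767 none here. The steps were tested on simulated data. Every measured member was named. From each list of other pathway genes the 3 passing genes with the largest change were named, or the 1 with the lowest p. The members and lists were chosen with earlier results of these data known, so their counts are descriptions. Alternatives were array weights, an offset of 16, a trended robust prior, quantile normalization, median centring, a replicate block, testing only brighter features, other choices of feature per gene and leaving out each array.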

Additional observations from a re-analysis of the deposited data

How the results depend on the processing

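With each array left out the count of collagen genes that passed ran from 16 to 20, with 6 to 9 higher and 10 to 12 lower, and that of all features from 5752 to 6768. With only features whose mean over 6 arrays reached the median, 17 of the 34 genes were tested and 7 passed as lower, against 11. Dimmer genes such as COL5A1 were not tested. The 7 included LOXL2 (limma adjusted p 0.0190) and SERPINH1 (0.0193), which did not pass when all features were tested. Under that setting 14 of 17 passed, with COL4A2, COL6A2 and COL9A3 newly passing as higher. The share of all features that passed was higher there too, 6875 of 16749 against 8819 of 33497. Of 289 values of the 34 genes under other settings than leaving out an array, 267 had the reported direction and call, 5 lost the call, 15 gained one and 2 had the opposite sign. Leaving out arrays gave 204 values, of which 174 matched in direction and call, 17 lost the call, 7 gained one and 6 had the opposite sign. The sign changes were of LOX and COL7A1, both close to 0. LOX was 0.0017 with median centring and 0.015 with array weights. With arrays left out LOX ran from -0.13 to 0.15 and COL7A1 from -0.12 to 0.050.

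Same-numbered cultures did not deviate together (correlations of -0.102, -0.119 and -0.0615 across features), and the labels give no shared handling. With the replicate block 5960 features and 16 collagen genes passed, 7 higher and 9 lower. Depth in the sense of signal over background could not be assessed without detection calls, which limits the sizes of changes in the 8 collagen genes with a mean intensity under 200 in either group, COL3A1, COL5A1, COL11A2, COL4A3, COL4A4, COL9A2, P4HA3 and PLOD2.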

Other observations

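The spread between cultures differed among the collagen genes. The highest over the lowest intensity in a group had a median of 1.26 over the 34 genes in FOXC2 cells, against 1.18 over all named genes, and of 1.20 against 1.20 in pBabe cells. PLOD2 had the widest spread of the 34, at 3.24 in FOXC2 cells against 1.25 in pBabe cells, followed by COL9A2 at 2.27 against 1.30. Both were dim in FOXC2 cells, with mean intensities of 119 and 169, so the sizes of these ratios are uncertain. SERPINH1 varied least in pBabe cells, at 1.03, and LOXL1 least in FOXC2 cells, at 1.04.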
